A study of Homo sapiens with 6 samples.

Results

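Transfection of A549 cells with an siRNA against Snai1 was compared with transfection of a control siRNA, gene by gene across the array. A549 is a human lung adenocarcinoma cell line, and the cells were grown in DMEM with 10% FCS. The comparison rests on 4 of the 6 arrays of the series, chosen by their labels: Snai1 siRNA replicates 1 and 2 and control siRNA replicates 1 and 2, called Snai1 arrays and control arrays 1 and 2 from here on. The remaining 2 arrays came from cells given an siRNA against the noncoding RNA ncRNA-a7, and they served to ask which changes that siRNA lacked. Total RNA was labelled with biotin and hybridised to single-colour Illumina bead arrays. All groups were transfected, so none of the values describes cells without siRNA. The siRNA sequences, doses and the time between transfection and harvest are not given in the sources used here, and neither is whether replicates were separate cultures. P-values therefore describe the spread between arrays, which may be technical.

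SNAI1 is a zinc finger protein that binds E-box elements in promoters and is known as a repressor of CDH1, the gene of E-cadherin, during the epithelial to mesenchymal transition (EMT). In carcinoma cells the transition is known for loss of cell junctions, gain of mesenchymal proteins and increased migration. ncRNA-a7 is a long noncoding RNA transcribed from the same chromosomal region and is known for an enhancer-like effect on SNAI1 in these cells.

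Signals are given in normalized linear units after background correction with an offset of 50 and quantile normalization, and differences are on the log2 scale of those units, which understates the change of dim genes. Of 48701 probes, 28044 carry 1 gene symbol in the platform annotation, and after a filter on dim probes 13057 named genes and 6673 unnamed probes were tested, each gene through its brightest probe. Arrays of 1 group correlated at 0.991 to 0.993 over all probes (log2 values) and arrays of different groups at 0.987 to 0.989. The single SNAI1 probe gave deposited signals of 127.5 and 127.3 on the Snai1 arrays, 142.7 and 144.2 on the control arrays and 138.8 and 146.5 on the ncRNA-a7 arrays. All of these lay at or below percentile 48 of their array, under the filter, and over all probes the difference from control was -0.25 ± 0.14 SE (limma adjusted p = 0.479, n = 2 per group), so the knockdown was not measurable at this signal. The probe of TRERNA1, the symbol of ncRNA-a7, was as dim, at 142.7 and 128.6 on the Snai1 arrays, 117.9 and 117.8 on the control arrays and 129.7 and 132.5 on the ncRNA-a7 arrays. The arrays labelled ncRNA-a7 siRNA were thus not below control at this probe (log2 difference 0.27 ± 0.14 SE over all probes, limma adjusted p = 0.427), and neither label is checked by signals this dim. The filter was passed by 7 of 8 epithelial markers. KRT8, KRT7, CDH1 and EPCAM lay at percentiles 98.9 to 99.5, 97.3 to 98.5, 94.5 to 97 and 81.8 to 92.3. KRT19, KRT18 and CLDN7 were dimmer, at 70.6 to 73.8, 65.3 to 72.2 and 56.7 to 68.7, and ESRP1 did not pass. Of 8 markers each of leukocytes, endothelial cells and fibroblasts, 5, 4 and 4 passed the filter. Those that passed include CD68 at percentiles 90.3 to 94.8, LUM at 76.5 to 80.8 and PECAM1 at 69.5 to 72.6, whereas PTPRC, CD3D, VWF, CDH5, COL1A2 and COL3A1 did not.

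Snai1 siRNA changed 822 named genes upward and 683 downward against control at a limma adjusted p under 0.05 (Benjamini-Hochberg over all 19730 features, n = 2 per group). These are 6.30% and 5.23% of the named genes tested, and 11.5% together. Over all features 1807 (9.16%) were called, 963 higher (4.88%) and 844 lower (4.28%). In RNA from whole cultures, fewer cells of a type and less RNA per cell cannot be told apart. Most of the changes were small. The median size of a called change was 0.58 on the log2 scale, the smallest was 0.39, and 92 features rose and 41 fell by at least 2-fold, 0.466% and 0.208% of those tested and 0.674% together. The called share followed brightness: with features split into 4 equal classes, 0.791% of the dimmest were called, 6.08% and 15.7% of the middle classes and 14.1% of the brightest. Counts depended on single arrays. They were 989 without Snai1 array 1, 724 without Snai1 array 2, 498 without control array 1 and 678 without control array 2. Median scaling gave 360 rises and 707 falls, so that 33.7% of calls were rises against 53.3% with quantile normalization.

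**Figure D1:**
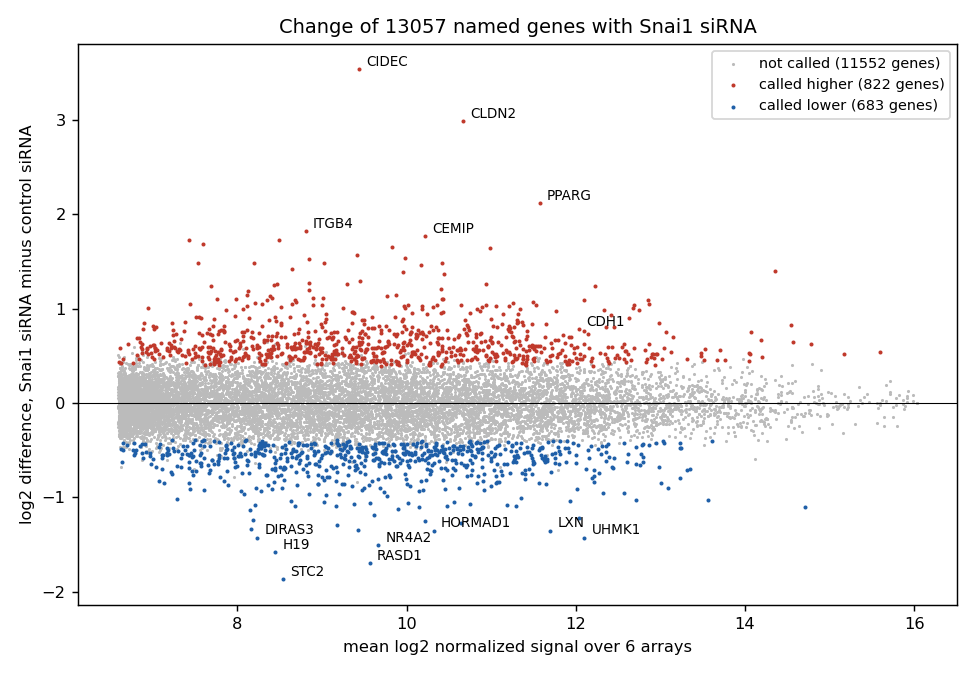
Log2 difference between Snai1 siRNA and control siRNA (vertical axis) against the mean log2 normalized signal over 6 arrays (horizontal axis) for 13057 named genes, with called genes in colour and not called genes in grey. CIDEC, CLDN2 and PPARG stand above the other called rises, and STC2 and RASD1 lie lowest among the 683 falls.

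Probes of the same gene gave a partial check within the arrays. Of 670 further probes of 507 called genes, 580 moved in the same direction as the brightest probe, and 357 of them by at least 50% of its log2 change. For genes changed at least 2-fold, 51 of 54 further probes had the same sign. These probes share the RNA and the arrays, so they bear on the probe and not on the replicate error.

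The strongest rise was in CIDEC, which encodes a protein that fuses lipid droplets. Its signal was 1716 and 1854 on the Snai1 arrays, 159.8 and 149 on the control arrays and 1186 and 1218 on the ncRNA-a7 arrays. The Snai1 arrays stood 11.6-fold above control (log2 difference 3.53 ± 0.12 SE, limma adjusted p = 2.1e-08, 2 arrays each) and were also above both ncRNA-a7 arrays. PPARG, the nuclear receptor that drives lipid storage genes, read 5266.5 and 5368 on the Snai1 arrays, 1302 and 1157 on the control arrays and 4269.7 and 4354 on the ncRNA-a7 arrays. It was 4.33-fold above control (log2 difference 2.12 ± 0.12 SE, limma adjusted p = 3.1e-06), and its difference between the siRNAs was not called (adjusted p = 0.139). SCD5, a fatty acid desaturase, read 1349.7 and 1746 on the Snai1 arrays, 474 and 499.8 on the control arrays and 1038 and 961 on the ncRNA-a7 arrays, so it lay in the order control, ncRNA-a7 and Snai1 with no overlap between groups. The CIDEC and SCD5 calls against ncRNA-a7 were both lost without Snai1 array 2 or ncRNA-a7 array 1.

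CLDN2, a claudin that forms cation pores in tight junctions, read 2851 and 3014 on the Snai1 arrays, 355 and 386.5 on the control arrays and 3890.5 and 3974 on the ncRNA-a7 arrays. It rose 7.91-fold over control (log2 difference 2.98 ± 0.12 SE, limma adjusted p = 7.26e-08) but was higher still on the ncRNA-a7 arrays, a difference whose call was lost without any of the 6 arrays in turn. ITGB4, the integrin beta subunit of hemidesmosomes, read 754 and 712 on the Snai1 arrays, 214 and 202 on the control arrays and 569.7 and 614 on the ncRNA-a7 arrays and rose 3.53-fold. CEMIP, a protein needed for hyaluronan breakdown, read 1558 and 1593 on the Snai1 arrays, 485 and 444 on the control arrays and 2800.1 and 1942 on the ncRNA-a7 arrays and rose 3.40-fold. Among the other large rises, PLAU, the urokinase protease, read 1710.3 and 1327 on the Snai1 arrays, 501 and 539 on the control arrays and 1324 and 1285 on the ncRNA-a7 arrays. STK39, a kinase that regulates ion cotransporters, read 2951 and 3119 on the Snai1 arrays, 983 and 968 on the control arrays and 2798 and 2807 on the ncRNA-a7 arrays. In both genes the Snai1 arrays were far above control, and their difference from ncRNA-a7 was not called (limma adjusted p = 0.397 and 0.594).

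IGFBP1, which binds insulin-like growth factors, read 1285 and 1137 on the Snai1 arrays, 355 and 468 on the control arrays and 662 and 638 on the ncRNA-a7 arrays and rose 2.97-fold over control. LBP, the lipopolysaccharide-binding protein of the acute phase response, read 296 and 336 on the Snai1 arrays, 80 and 113.5 on the control arrays and 169.9 and 168 on the ncRNA-a7 arrays. REEP1, a protein that shapes the endoplasmic reticulum, read 315 and 337 on the Snai1 arrays, 90.2 and 114 on the control arrays and 232 and 200.4 on the ncRNA-a7 arrays. In all 3 the Snai1 arrays were highest, ncRNA-a7 arrays were between and control arrays lowest, and the REEP1 call against ncRNA-a7 was lost without any 1 of the Snai1 or ncRNA-a7 arrays. GALNT18, a member of the family that starts mucin-type O-glycosylation, rose 2.87-fold, PKIB, an inhibitor of protein kinase A, 2.80-fold, and IGSF3, an immunoglobulin superfamily membrane protein, 2.80-fold.

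**Figure D2:**
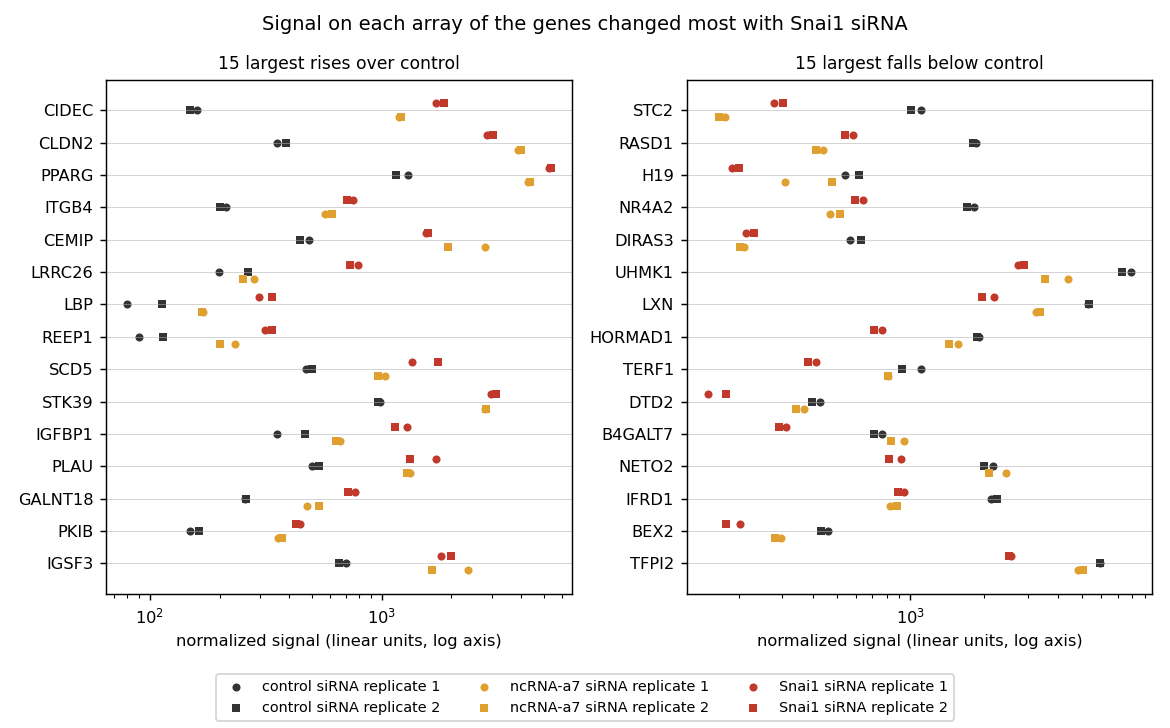
Normalized signal on each of the 6 arrays (horizontal log axis, linear units) for the 15 largest rises and the 15 largest falls against control, with groups by colour and replicates by symbol. Snai1 siRNA and control arrays do not overlap in any of the 30 genes, as the selection required, while ncRNA-a7 arrays lie near the Snai1 arrays for PPARG, STK39, NR4A2 and IFRD1 and near control for LRRC26, DTD2 and NETO2.

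Among the falls, STC2, a secreted glycoprotein induced by endoplasmic reticulum stress, read 277 and 301 on the Snai1 arrays, 1103 and 1007 on the control arrays and 175 and 166 on the ncRNA-a7 arrays. It was 3.65-fold lower than control (log2 difference -1.87 ± 0.12 SE, limma adjusted p = 9.48e-06) and fell further with ncRNA-a7 siRNA. RASD1, a Ras-like protein inducible by dexamethasone, read 580.5 and 542 on the Snai1 arrays, 1846 and 1790.2 on the control arrays and 441 and 412.5 on the ncRNA-a7 arrays. NR4A2, an orphan nuclear receptor and immediate early gene, read 642.5 and 592 on the Snai1 arrays, 1812 and 1697 on the control arrays and 472 and 517 on the ncRNA-a7 arrays. Both were lowest on the ncRNA-a7 arrays, although neither difference between the siRNAs was called (limma adjusted p = 0.0557 and 0.124). IFRD1, a transcriptional coregulator, read 939 and 892.5 on the Snai1 arrays, 2122 and 2244 on the control arrays and 827 and 878 on the ncRNA-a7 arrays and was 2.38-fold below control.

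H19, an imprinted noncoding RNA, read 187 and 199 on the Snai1 arrays, 538 and 618 on the control arrays and 307 and 479.9 on the ncRNA-a7 arrays. It was 2.99-fold below control (log2 difference -1.58 ± 0.18 SE, limma adjusted p = 0.000336), and the ncRNA-a7 arrays, which differed widely from each other, were not called against control (adjusted p = 0.0586). HORMAD1, a meiotic chromosome protein found in some tumours, read 767 and 712 on the Snai1 arrays, 1907.5 and 1872 on the control arrays and 1559 and 1430.1 on the ncRNA-a7 arrays. TFPI2, an inhibitor of serine proteases of the matrix, read 2557 and 2518 on the Snai1 arrays, 5915 and 5920.1 on the control arrays and 4819 and 5073 on the ncRNA-a7 arrays. In both, Snai1 arrays lay well below all the others. LXN, an inhibitor of carboxypeptidases, and UHMK1, a kinase with an RNA-binding motif, were 2.56-fold and 2.69-fold below control and lay between control and Snai1 siRNA on the ncRNA-a7 arrays. The LXN call against ncRNA-a7 was lost without Snai1 array 2, and the UHMK1 call without any 1 array except ncRNA-a7 array 2. BEX2 was 2.36-fold lower. DIRAS3, an imprinted Ras-related gene, read 214 and 229.6 on the Snai1 arrays, 567 and 629 on the control arrays and 209.8 and 201 on the ncRNA-a7 arrays, so it was 2.69-fold below control, and its difference between the siRNAs was not called (limma adjusted p = 0.63). The calls of all 15 rises and 15 falls against control were kept without any single array, with the highest adjusted p, 0.00897, for H19.

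The ncRNA-a7 siRNA changed 1962 features (9.94%) against the same 2 control arrays. To find changes that the other siRNA lacked, features were required to differ from control and from ncRNA-a7 in the same direction, each at an adjusted p under 0.05. The difference between Snai1 siRNA and ncRNA-a7 siRNA is also the difference between their changes from control, because the control term cancels. Both contrasts use the same 2 Snai1 arrays, so a deviation of those arrays enters both. Against ncRNA-a7, 1601 features (8.11%) were called, 666 higher (3.38%) and 935 lower (4.74%). Against both groups 480 features (2.43%) were called, 165 higher (0.836%) and 315 lower (1.60%), so falls outnumbered rises here. In the comparison with control alone rises outnumbered falls with quantile normalization, but not with median scaling (360 rises and 707 falls). They include 397 named genes, 144 higher and 253 lower (3.04%, 1.10% and 1.94% of named genes tested). With ncRNA-a7 siRNA, 426 of the 480 were not called against control, 31 were called in the same direction and 23 in the opposite one. These counts stand beside the 9.94% of all features called with that siRNA. For 332 of the 480 the 95% interval of the ncRNA-a7 change lay within 0.5 of zero on the log2 scale. That bound is wider than the smallest called change with Snai1 siRNA against control, 0.39. The share over all features was not counted, so the 332 do not set these features apart from the rest. A further 1285 features were called against control and not against ncRNA-a7, which does not show that both siRNAs acted alike on them.

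The count of features changed against both groups was 225 without Snai1 array 1, 129 without Snai1 array 2, 146 without control array 1, 189 without control array 2 and 248 without ncRNA-a7 array 1. Falls outnumbered rises in each of these. With median scaling 45 were higher and 196 lower, 18.7% rises against 34.4% with quantile normalization.

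**Figure D3:**
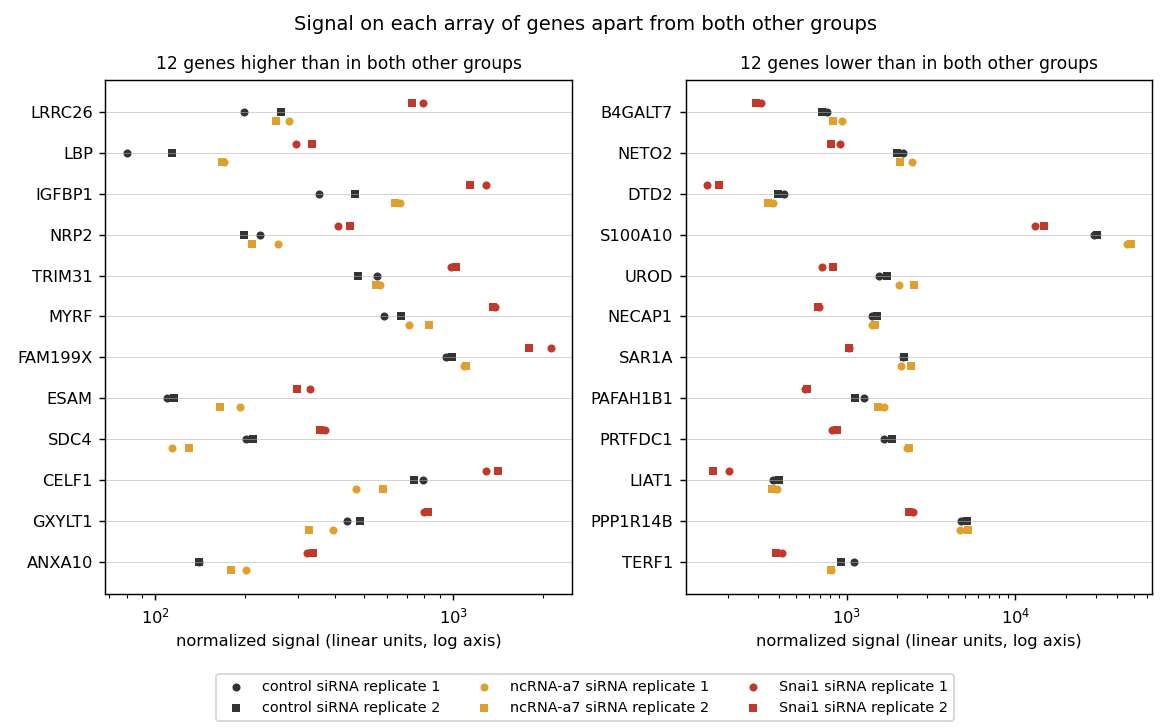
Normalized signal on each array (horizontal log axis, linear units) for the 12 genes most above and the 12 most below both other groups, with groups by colour and replicates by symbol. In each of the 24 genes both Snai1 arrays lie beyond the 4 other arrays, as the selection required, and for NECAP1, SAR1A and PPP1R14B control and ncRNA-a7 arrays lie close together.

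Of the genes that stood above both groups, LRRC26, an auxiliary subunit of large-conductance potassium channels, was furthest apart. It read 794 and 729 on the Snai1 arrays, 198 and 265 on the control arrays and 281 and 253 on the ncRNA-a7 arrays, which is 3.32-fold above control (log2 difference 1.73 ± 0.15 SE, limma adjusted p = 6.78e-05) and 2.85-fold above ncRNA-a7 (log2 difference 1.51 ± 0.15 SE, limma adjusted p = 0.000213). The ncRNA-a7 arrays differed from control by 0.22 (95% interval -0.10 to 0.54). NRP2, a coreceptor of semaphorins and VEGF, read 411 and 449 on the Snai1 arrays, 224 and 198.5 on the control arrays and 258 and 211 on the ncRNA-a7 arrays. TRIM31, a ubiquitin ligase, read 984 and 1025 on the Snai1 arrays, 553 and 478 on the control arrays and 567 and 548 on the ncRNA-a7 arrays. Both were about equal in control and ncRNA-a7 arrays, with ncRNA-a7 differences of 0.15 (95% interval -0.14 to 0.44) and 0.12 (95% interval -0.14 to 0.38). MYRF, a membrane-bound transcription factor, rose 2.19-fold over control and FAM199X 2.03-fold. ESAM, a junctional adhesion molecule best known from endothelium, read 329.7 and 299.5 on the Snai1 arrays, 109.6 and 116 on the control arrays and 192 and 165 on the ncRNA-a7 arrays. ANXA10, an annexin, read 322 and 338 on the Snai1 arrays, 139.5 and 139.8 on the control arrays and 201 and 179.9 on the ncRNA-a7 arrays. For these 2 genes the ncRNA-a7 arrays also exceeded control, by 0.66 and 0.45 on the log2 scale (limma adjusted p = 0.00637 and 0.0329), and the Snai1 arrays were higher again.

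Genes below both groups included several of high signal. S100A10, the partner of annexin A2 at the plasma membrane, read 13001 and 14780.5 on the Snai1 arrays, 28963 and 30425 on the control arrays and 45404 and 48398 on the ncRNA-a7 arrays. It was 2.14-fold below control (log2 difference -1.10 ± 0.12 SE, limma adjusted p = 0.000293) and 3.38-fold below ncRNA-a7. PPP1R14B, an inhibitor of protein phosphatase 1, read 2469 and 2346 on the Snai1 arrays, 4783.5 and 5139 on the control arrays and 4672 and 5216 on the ncRNA-a7 arrays, and its change with ncRNA-a7 siRNA was -0.01 (95% interval -0.26 to 0.25). SAR1A, the GTPase that starts COPII vesicle budding, read 1038 and 1033 on the Snai1 arrays, 2148 and 2202 on the control arrays and 2094 and 2418 on the ncRNA-a7 arrays. NECAP1, a clathrin adaptor partner, read 686 and 677 on the Snai1 arrays, 1411 and 1522 on the control arrays and 1422 and 1473 on the ncRNA-a7 arrays. For these 3 genes control and ncRNA-a7 arrays were close together, and the Snai1 arrays were 2.06-fold to 2.15-fold lower.

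B4GALT7, which adds the first galactose of the glycosaminoglycan linker, read 311 and 292 on the Snai1 arrays, 764 and 712 on the control arrays and 936.5 and 830.5 on the ncRNA-a7 arrays. NETO2, an auxiliary subunit of kainate receptors, read 911 and 815 on the Snai1 arrays, 2173 and 1999 on the control arrays and 2445.5 and 2082 on the ncRNA-a7 arrays. DTD2, a deacylase of misacylated tRNA, read 149 and 177 on the Snai1 arrays, 426 and 395 on the control arrays and 368 and 342 on the ncRNA-a7 arrays. Each of them was lowest on both Snai1 arrays, with ncRNA-a7 changes from control of 0.26 (95% interval -0.002 to 0.52), 0.12 (95% interval -0.16 to 0.39) and -0.21 (95% interval -0.48 to 0.06). PAFAH1B1, a dynein regulator also called LIS1, was 2.08-fold below control, UROD, a heme synthesis enzyme, 2.13-fold, PRTFDC1 2.07-fold and LIAT1 2.12-fold. TERF1, the telomere protein TRF1 of the shelterin complex, read 413 and 383 on the Snai1 arrays, 1107 and 925.5 on the control arrays and 813 and 813 on the ncRNA-a7 arrays and was 2.55-fold below control (log2 difference -1.35 ± 0.13 SE, limma adjusted p = 9.25e-05). Of the 24 genes in the plot of genes apart from both groups, LBP lost its call against ncRNA-a7 without Snai1 array 2 (adjusted p = 0.06), and the other 23 kept both calls without any single array.

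Some genes moved in opposite directions with the siRNAs, each change being called against control. Of 21 such named genes, 5 were higher with Snai1 siRNA and lower with ncRNA-a7 siRNA, and 16 the reverse. KRT80, an epithelial keratin, read 1295.5 and 1700.3 on the Snai1 arrays, 2535.5 and 2639 on the control arrays and 5085 and 5263 on the ncRNA-a7 arrays. SDC4, a heparan sulfate proteoglycan of focal adhesions, read 372 and 356 on the Snai1 arrays, 202 and 212 on the control arrays and 113 and 129.6 on the ncRNA-a7 arrays. CELF1, an RNA-binding protein of splicing and decay, read 1287 and 1412 on the Snai1 arrays, 792 and 741 on the control arrays and 472 and 583 on the ncRNA-a7 arrays. In SDC4 and CELF1 the order was ncRNA-a7, control and Snai1 with no overlap, and in KRT80 it was reversed. IFNAR1, a subunit of the type I interferon receptor, changed by -0.77 and 0.61, IL6ST, the shared receptor gp130, by -0.68 and 0.55, and BMPR2, a BMP receptor, by -0.69 and 0.63, Snai1 siRNA first. The call against control was lost without control array 2 for IL6ST, and without Snai1 array 1 or control array 1 for BMPR2. The opposite group was named after its values were seen.

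Gene lists are described by counts of called members beside the shares over all named genes, 6.30% higher and 5.23% lower, and by their median log2 difference from control, which was -0.01 over all features. The lists were drawn up with earlier results of these arrays known, and no test of a list as a whole was made. Numbers called are of members that passed the filter, and members named beyond the 4 with the smallest p of each list were chosen after their values were seen.

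**Figure D4:**
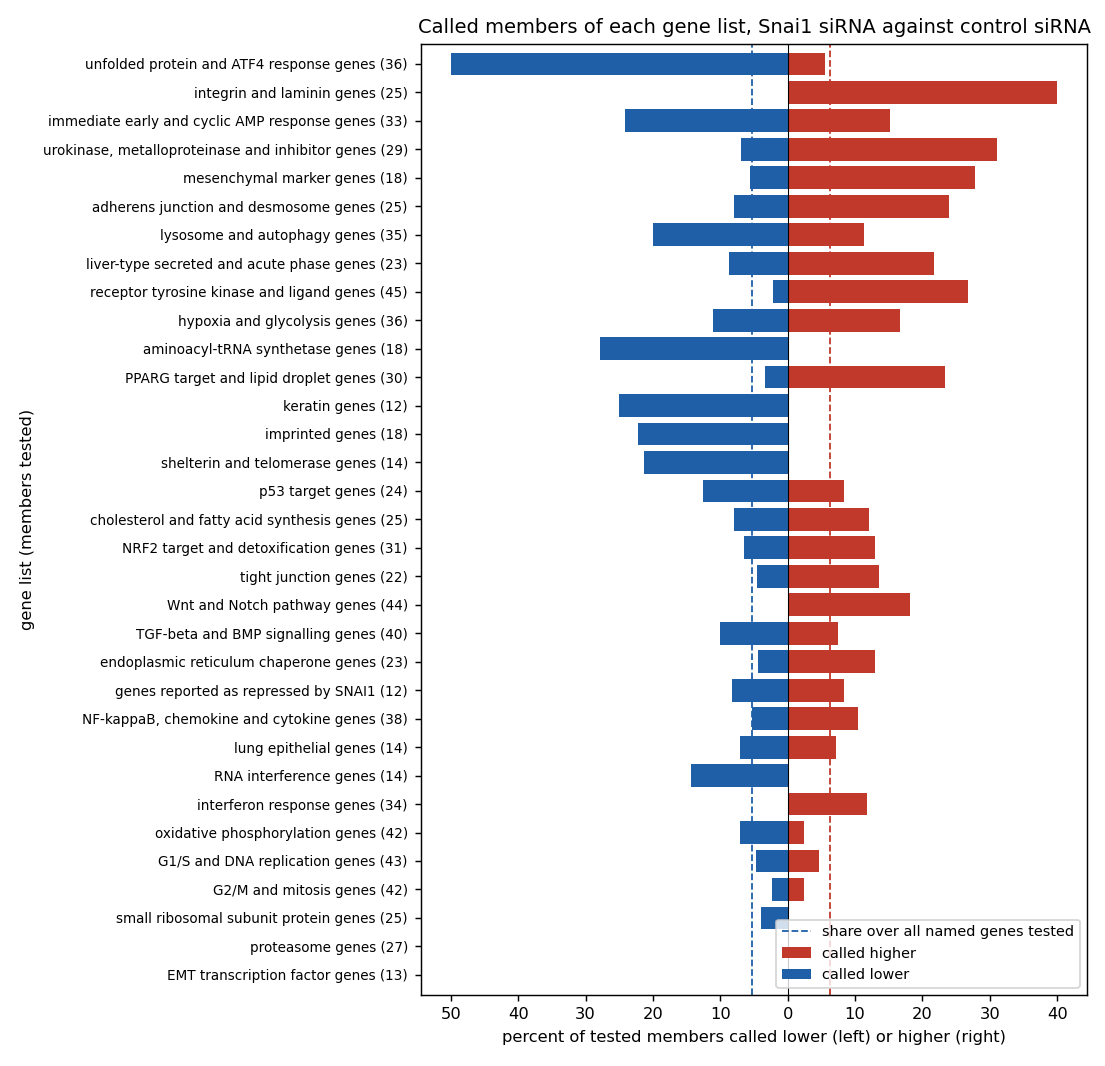
Percent of the tested members of each of 33 gene lists that were called lower (left, blue) or higher (right, red) with Snai1 siRNA against control, with the number tested in brackets and dashed lines at the shares over all named genes, 5.23% and 6.30%. Unfolded protein and ATF4 response genes reach furthest to the left, with 18 of 36 called lower, and integrin and laminin genes furthest to the right, with 10 of 25 called higher.

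Junction, integrin and mesenchymal genes had more members called higher than lower, and keratin genes had more called lower, while most members of each list were not called. CDH1 read 5275 and 4957 on the Snai1 arrays, 2971 and 2980 on the control arrays and 4894.5 and 4932 on the ncRNA-a7 arrays, so both siRNA groups lay above control and close to each other (1.72-fold over control, log2 difference 0.78 ± 0.11 SE, limma adjusted p = 0.0014; adjusted p = 0.811 between the siRNAs). CDH2, the gene of N-cadherin and a mesenchymal marker, read 856 and 869 on the Snai1 arrays, 380.5 and 340.2 on the control arrays and 814 and 793 on the ncRNA-a7 arrays and rose 2.40-fold. Of 25 adherens junction and desmosome genes 6 rose and 2 fell (median 0.28). Those that rose include PKP2, a desmosomal plakophilin (2.67-fold), NECTIN3 (2.15-fold) and CTNNAL1 (1.63-fold), and EPCAM, an epithelial adhesion molecule, fell 2.18-fold. Of 22 tight junction genes 3 rose and 1 fell (median 0.03), with PALS1, a polarity scaffold, 2.03-fold higher beside CLDN2. CLDN1 differed by 0.06 (95% interval -0.19 to 0.30).

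Integrin and laminin genes had 10 of 25 members higher and 0 lower (median 0.24), and 3 were higher with median scaling. After ITGB4, LAMC1, the gamma-1 chain of most laminins, read 7996 and 7777 on the Snai1 arrays and 4009 and 3847 on the control arrays. ITGA3, a laminin-binding integrin subunit, read 1331 and 1500.3 on the Snai1 arrays and 711 and 764 on the control arrays. On the ncRNA-a7 arrays LAMC1 read 9289 and 8753 and ITGA3 read 1829 and 1613, above the Snai1 arrays. Neither difference between the siRNAs was called (limma adjusted p = 0.337 and 0.196). The median of the list was 0.27 with ncRNA-a7 siRNA, and 1 member was higher with Snai1 siRNA than in both other groups. Both genes were named because they were called, and both Snai1 arrays lay above both control arrays. The remaining called members, ITGB1, ITGAV, ITGA1, ITGA6, LAMA5, LAMB1 and PLEC, rose by 0.43 to 0.70 on the log2 scale, and each of these 7 calls was lost without at least 2 of the single arrays of both groups. Of 12 keratin genes 0 rose, 3 fell and 9 were not called (median -0.11). At an unadjusted limma p under 0.05, 2 were higher and 4 lower. The summed signal of the 12 was 33420 to 36050 with Snai1 siRNA and 32145 to 34135 with control siRNA, so the list as a whole was not dimmer. All 3 that were called lower were also lower than with ncRNA-a7 siRNA. KRT7, a keratin of simple epithelia and among the brightest genes, read 5789.6 and 6040.4 on the Snai1 arrays, 9196 and 9743 on the control arrays and 9310.5 and 9870.1 on the ncRNA-a7 arrays, with a ncRNA-a7 change of 0.02 (95% interval -0.23 to 0.27). KRT4 fell 1.46-fold, a call against control lost without any of the 4 arrays of Snai1 and control siRNA in turn.

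Of 18 mesenchymal marker genes 5 rose and 1 fell (median 0.12), among them AXL, a receptor tyrosine kinase linked to invasion (2.09-fold), while THBS1, thrombospondin 1, fell 1.70-fold, a call lost without control array 2. With ncRNA-a7 siRNA the list median was 0.26 and AXL rose 2.07-fold over control (limma adjusted p = 0.973 between the siRNAs). VIM, the gene of vimentin, differed by 0.06 (95% interval -0.18 to 0.31). Of 13 EMT transcription factor genes 0 were called by limma and 0 had an unadjusted p under 0.05, ZEB1 for example differing by 0.25 (95% interval -0.002 to 0.50). In the list of 15 genes reported as repressed by SNAI1, 12 passed the filter, CDH1 rose and CRB3, an apical polarity protein, fell 1.53-fold. That fall was no longer called when either Snai1 array or control array 1 was left out. Of 30 distinct genes called in the adhesion and EMT lists, 20 were called again without Snai1 array 1, 18 without Snai1 array 2, 16 without control array 1 and 20 without control array 2, and 19 with median scaling.

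SNAI1 binds the E-box CAGGTG, which reads CACCTG on the other strand. Both forms were searched in 300-base windows, 250 bases before to 50 after the most upstream start of each gene (RefSeq sequences, GRCh38.p14). The motif was found in 20.6% of 27305 RefSeq windows and in 18.3% of the 10589 that belong to named genes tested. It was found in 119 of 662 windows of genes called higher (18.0%) and in 107 of 565 of genes called lower (18.9%), both near the share over all genes tested. No share is given for genes changed at least 2-fold, since under 80% of them had a window (59 of 78 higher and 30 of 38 lower). Of 142 named genes 112 had a window, and 19 of those held a match. CDH1 had no window. CIDEC, CLDN2, ITGB4, CEMIP and RASD1, also among the largest changes, are not among the 19, having no match or no window. Windows of 5 genes picked from the 19 with a match follow, with each match in capitals: CRB3 from the list of genes reported as repressed, PPARG and LRRC26 from the largest rises, and STC2 and H19 from the largest falls.
CRB3 (chr19:6464021-6464320, plus strand): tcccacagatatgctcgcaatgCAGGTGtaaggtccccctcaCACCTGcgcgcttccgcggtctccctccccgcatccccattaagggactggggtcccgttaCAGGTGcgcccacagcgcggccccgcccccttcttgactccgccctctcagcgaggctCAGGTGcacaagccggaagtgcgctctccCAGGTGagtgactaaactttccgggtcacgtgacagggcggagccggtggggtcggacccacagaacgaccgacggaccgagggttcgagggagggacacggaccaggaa
PPARG (chr3:12287118-12287417, plus strand): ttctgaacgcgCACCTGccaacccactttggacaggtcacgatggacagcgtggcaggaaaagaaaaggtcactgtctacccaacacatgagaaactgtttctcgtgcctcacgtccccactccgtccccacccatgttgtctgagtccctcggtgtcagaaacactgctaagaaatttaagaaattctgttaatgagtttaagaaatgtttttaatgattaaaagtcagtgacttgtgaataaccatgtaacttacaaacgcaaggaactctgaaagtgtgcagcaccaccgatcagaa
LRRC26 (chr9:137170002-137170301, minus strand): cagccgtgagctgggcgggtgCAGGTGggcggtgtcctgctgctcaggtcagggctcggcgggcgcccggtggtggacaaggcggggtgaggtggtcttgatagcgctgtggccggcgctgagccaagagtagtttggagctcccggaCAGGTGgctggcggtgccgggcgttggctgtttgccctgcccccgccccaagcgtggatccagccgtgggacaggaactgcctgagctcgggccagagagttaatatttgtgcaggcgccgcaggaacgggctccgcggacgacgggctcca
STC2 (chr5:173328365-173328664, minus strand): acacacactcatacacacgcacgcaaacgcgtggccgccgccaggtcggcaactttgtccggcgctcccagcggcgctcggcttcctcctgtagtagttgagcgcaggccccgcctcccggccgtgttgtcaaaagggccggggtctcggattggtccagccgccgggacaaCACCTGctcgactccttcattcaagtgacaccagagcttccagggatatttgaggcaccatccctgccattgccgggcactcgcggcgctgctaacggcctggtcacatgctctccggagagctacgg
H19 (chr11:2001217-2001516, minus strand): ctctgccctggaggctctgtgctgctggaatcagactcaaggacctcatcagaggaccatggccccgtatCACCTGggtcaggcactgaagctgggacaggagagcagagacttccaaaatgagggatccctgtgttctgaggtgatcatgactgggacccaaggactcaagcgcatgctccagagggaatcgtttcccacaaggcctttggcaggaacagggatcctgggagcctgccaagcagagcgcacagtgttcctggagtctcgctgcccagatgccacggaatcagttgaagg
CRB3 held 5 matches, LRRC26 2 and the others 1 each. CRB3, with the most matches, was lower with Snai1 siRNA, a call lost without either Snai1 array or control array 1. It was also lower with ncRNA-a7 siRNA (log2 difference from control -0.88, limma adjusted p = 0.00333). A match describes the letters of the window and says nothing of binding in these cells.

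Proteases, their inhibitors and growth factor receptors had more members called higher than lower, although most were not called. Of 29 urokinase, metalloproteinase and inhibitor genes, a list that also holds hyaluronan enzymes, 9 rose and 2 fell (median 0.16). The median of this list was 0.32 with ncRNA-a7 siRNA, and 1 member, HAS3, was higher with Snai1 siRNA than in both other groups. TIMP2, an inhibitor of metalloproteinases, read 2908 and 2671 on the Snai1 arrays and 1065 and 1273.5 on the control arrays and rose 2.39-fold. HAS3, a hyaluronan synthase, read 735 and 642 on the Snai1 arrays and 278 and 291 on the control arrays and rose 2.42-fold. SERPINE2, a protease inhibitor, and PLAUR, the urokinase receptor, rose 1.97-fold and 1.59-fold. In these 4 genes, named because they were called, both Snai1 arrays lay above both control arrays. With ncRNA-a7 siRNA, TIMP2 and HAS3 also rose over control, 1.99-fold and 1.74-fold (limma adjusted p = 0.000592 and 0.00148). Of the 4 genes only HAS3 was called between the siRNAs, and that call was lost without each of the 6 arrays in turn.

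Of 45 receptor tyrosine kinase and ligand genes, a list that includes feedback inhibitors, 12 rose and 1 fell (median 0.12). EGFR, the epidermal growth factor receptor, read 1523.5 and 1677 on the Snai1 arrays, 922 and 994 on the control arrays and 978 and 961 on the ncRNA-a7 arrays. It rose 1.67-fold over control (log2 difference 0.74 ± 0.12 SE, limma adjusted p = 0.00248) and was 1.65-fold above ncRNA-a7 (log2 difference 0.72 ± 0.12 SE, limma adjusted p = 0.00402), while ncRNA-a7 and control differed by 0.02 (95% interval -0.24 to 0.27). ERBB3, a receptor of the same family, rose 2.17-fold and MET, the hepatocyte growth factor receptor, 1.71-fold. Their differences from ncRNA-a7 were not called (limma adjusted p = 0.0876 and 0.647). The inhibitors of this pathway SPRED1 and DUSP5 rose 1.92-fold and 1.70-fold, and FGF2, a growth factor, fell 1.63-fold, a call lost without control array 1. Of 24 distinct genes called in both lists, 15 were called again without either Snai1 array, 12 without control array 1 and 13 without control array 2, and 15 with median scaling.

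Lipid genes other than the leading ones changed by less than 2-fold. Of 30 PPARG target and lipid droplet genes 7 rose and 1 fell (median 0.24). Besides CIDEC, PPARG and SCD5 these were ANGPTL4, an inhibitor of lipoprotein lipase (1.63-fold), PNPLA2, the main triglyceride lipase of droplets (1.43-fold), CPT1A (1.36-fold) and MGLL (1.39-fold), with KLF4 1.37-fold lower. Each of these 5 calls was lost without 2 or more of the single arrays. PLIN2, a droplet coat protein, differed by 0.39 (95% interval 0.14 to 0.64) and was not called (limma adjusted p = 0.0532). Of 25 cholesterol and fatty acid synthesis genes 3 rose and 2 fell (median 0.03). HMGCS1, an early enzyme of cholesterol synthesis, read 3916 and 3623 on the Snai1 arrays and 2205 and 2014 on the control arrays and rose 1.79-fold. FADS1, a desaturase, read 2859 and 2489 on the Snai1 arrays, 3946 and 4295 on the control arrays and 4940.1 and 4901 on the ncRNA-a7 arrays. It was lowest with Snai1 siRNA, 1.54-fold below control and 1.84-fold below ncRNA-a7, and its call against control was lost without replicate 2 of Snai1 siRNA or of control siRNA.

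Of 23 liver-type secreted and acute phase genes 5 rose and 2 fell (median 0.27). After LBP, HGD, an enzyme of tyrosine breakdown, rose 1.69-fold, and APOM, an apolipoprotein, fell 1.65-fold, a call lost without control array 1. Of 14 lung epithelial genes 1 rose and 1 fell (median 0.06), with MUC13, a membrane mucin, at 364 and 401 on the Snai1 arrays and 206.5 and 202 on the control arrays. Of 22 distinct genes called in the lipid, liver-type and lung lists, 14 were called again without Snai1 array 1, 9 without Snai1 array 2, 10 without control array 1 and 8 without control array 2, and 11 with median scaling.

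Unfolded protein and ATF4 response genes formed the list with the largest share of calls, 20 of 36 or 55.6%, 2 higher and 18 lower (median -0.40). ATF4 is a transcription factor that raises amino acid synthesis and transport when amino acids are short or the endoplasmic reticulum is stressed. Among its known targets, CBS, an enzyme of the transsulfuration pathway, read 515 and 571 on the Snai1 arrays, 1211 and 1067 on the control arrays and 518 and 442 on the ncRNA-a7 arrays. ASNS, asparagine synthetase, read 5608 and 4932 on the Snai1 arrays, 10323 and 10076 on the control arrays and 4524 and 3943 on the ncRNA-a7 arrays. PSAT1, of serine synthesis, read 8885 and 10141 on the Snai1 arrays, 17005 and 15921 on the control arrays and 6030.5 and 5340.2 on the ncRNA-a7 arrays. In all 3 both siRNA groups lay below control, and the difference between the siRNAs was called for PSAT1 (log2 difference 0.74 ± 0.12 SE, limma adjusted p = 0.00481), whose signal was higher on the Snai1 arrays than on the ncRNA-a7 arrays. That call was lost without Snai1 array 2. The transporters SLC1A5 and SLC6A9 fell 1.88-fold and 1.83-fold, and the stress regulators CHAC1 and DDIT3 1.88-fold and 1.70-fold. ATF4 itself differed by -0.25 (95% interval -0.52 to 0.01) and was not called (limma adjusted p = 0.244).

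GDF15, a stress cytokine, was the 1 member of that list below both other groups, at 5996 and 6634.5 on the Snai1 arrays, 12556 and 10977 on the control arrays and 9275 and 8642.5 on the ncRNA-a7 arrays. Its call against ncRNA-a7 was lost without either Snai1 array or either ncRNA-a7 replicate. The 2 members that rose, EDEM1 and SEL1L, act in degradation from the endoplasmic reticulum, and both calls were lost without each of the Snai1 and control siRNA arrays. Of 18 aminoacyl-tRNA synthetase genes 0 rose and 5 fell (median -0.24). GARS1 for glycine was 1.63-fold and YARS1 for tyrosine 1.54-fold lower, and 0 of the 5 were called without Snai1 array 2. Of 23 endoplasmic reticulum chaperone genes 3 rose and 1 fell (median 0.13), with CRELD2 1.51-fold higher, and again 0 were called without Snai1 array 2. Of 29 distinct genes called in the lists of ATF4, chaperone and synthetase genes, 17 were called again without Snai1 array 1, 13 without Snai1 array 2, 11 without control array 1 and 14 without control array 2, and 21 with median scaling.

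**Figure D5:**
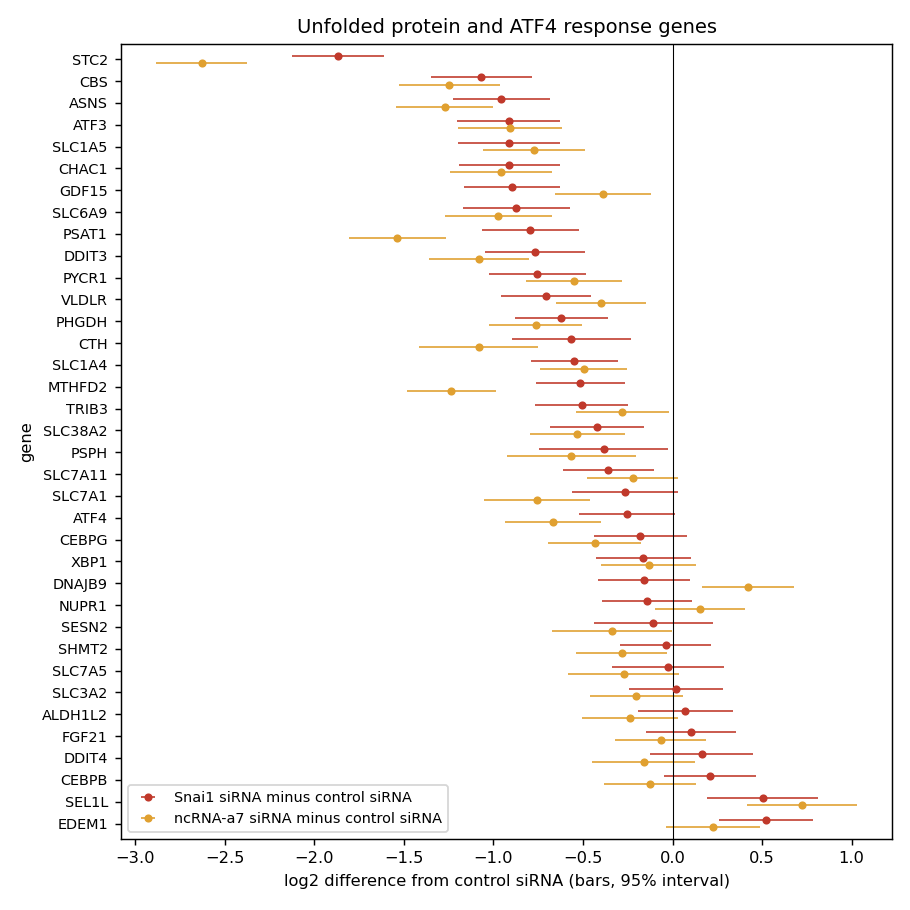
Log2 difference from control siRNA (horizontal axis) with its 95% interval for the 36 tested unfolded protein and ATF4 response genes, Snai1 siRNA in red and ncRNA-a7 siRNA in yellow, which share the 2 control arrays. With Snai1 siRNA 18 members were called lower and 2 higher. PSAT1 and MTHFD2 differ between the siRNAs (limma adjusted p = 0.00481 and 0.00356).

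Immediate early and cyclic AMP response genes had 5 of 33 members called higher and 8 lower (median -0.10), but 0 higher and 7 lower with median scaling. After RASD1 and NR4A2, ATF3 fell 1.89-fold. SGK1, a glucocorticoid-inducible kinase, read 2048 and 1782.5 on the Snai1 arrays, 3232 and 3179.5 on the control arrays and 3061 and 2977 on the ncRNA-a7 arrays, lower than in both other groups, and its call against ncRNA-a7 was lost without Snai1 array 2. The SGK1 calls against control and against ncRNA-a7 were also lost with the mean of its probes in place of the brightest. DUSP1, a MAP kinase phosphatase, read 2943.5 and 3312 on the Snai1 arrays, 2156 and 2166 on the control arrays and 1587.5 and 1846 on the ncRNA-a7 arrays. ZFP36, which destabilises cytokine mRNAs, read 2375 and 2571 on the Snai1 arrays, 1516 and 1754 on the control arrays and 1536 and 1403 on the ncRNA-a7 arrays. Both were higher with Snai1 siRNA than in both other groups, although the calls against control were lost without control array 1 or Snai1 array 2, and for DUSP1 also without control array 2. Both calls were lost with median scaling.

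The hypoxia and glycolysis list had 6 rises and 4 falls among 36 genes (median 0.18). EPAS1, the hypoxia-inducible factor 2 alpha subunit, read 8742 and 8075 on the Snai1 arrays and 4008 and 4205 on the control arrays and rose 2.05-fold. SLC2A3, a glucose transporter, read 5822 and 5783 on the Snai1 arrays and 12227 and 11453 on the control arrays and was 2.04-fold lower, and ADM, adrenomedullin, was 1.78-fold lower. Among 31 tested NRF2 targets there were 4 rises and 2 falls (median 0.04), with SRXN1, sulfiredoxin, 2.04-fold lower, and ALDH3A1 and ABCC3 1.78-fold and 1.69-fold higher. Of 24 p53 target genes 2 rose and 3 fell (median 0), and apart from GDF15 each of these calls was lost without at least 3 of the single arrays. Of 34 distinct genes called in the immediate early, hypoxia, NRF2 and p53 lists, 20 were called again without Snai1 array 1 and 15 without each of the other 3 arrays of Snai1 and control siRNA, and 17 with median scaling.

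In the signalling lists, Wnt and Notch pathway genes had 8 of 44 members higher and 0 lower (median 0.11), and 3 higher either with median scaling or without Snai1 array 2. NOTCH3, a Notch receptor, read 2334 and 1927 on the Snai1 arrays, 902 and 936 on the control arrays and 1392 and 1188 on the ncRNA-a7 arrays. LEF1, a transcription factor of the Wnt pathway, read 899 and 952 on the Snai1 arrays, 558 and 552 on the control arrays and 708 and 612 on the ncRNA-a7 arrays. DLL1, a Notch ligand, read 162 and 211 on the Snai1 arrays, 96.6 and 116.5 on the control arrays and 108 and 125 on the ncRNA-a7 arrays. All 3 were higher than in both other groups, with ncRNA-a7 changes from control of 0.49, 0.25 and 0.13. The calls against ncRNA-a7 were each lost without 2 or more single arrays, and the DLL1 call against control without Snai1 array 2 or control array 1. Of 40 TGF-beta and BMP genes 3 rose and 4 fell (median 0.04), with TGFBR3, a coreceptor, 1.60-fold higher and ID4 1.76-fold lower, calls lost without control array 2 and, for ID4, without Snai1 array 2.

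Of 38 NF-kappaB, chemokine and cytokine genes 4 rose and 2 fell (median -0.02), and 5 of the 6 stood apart from both other groups. IL4R, the interleukin 4 receptor, read 512 and 495 on the Snai1 arrays, 231 and 236 on the control arrays and 299.5 and 381 on the ncRNA-a7 arrays. CCL20, a chemokine, read 1142 and 1137 on the Snai1 arrays, 714 and 729 on the control arrays and 697.5 and 625 on the ncRNA-a7 arrays. IFNAR1 and IL6ST were the 2 that fell, and IFNAR1 read 183.5 and 216 on the Snai1 arrays, 338 and 339 on the control arrays and 506 and 524.5 on the ncRNA-a7 arrays. The IL4R call against ncRNA-a7 was lost without either Snai1 array or ncRNA-a7 array 1, and the CCL20 call against control without control array 1. Of 34 interferon response genes 4 rose and 0 fell (median 0.07). IFIT1, an interferon-induced RNA-binding protein, read 661 and 705 on the Snai1 arrays, 269 and 221 on the control arrays and 806 and 894 on the ncRNA-a7 arrays. The other 3, DDX60, PARP9 and OAS1, rose by 0.44 to 0.56 on the log2 scale, and each of these calls was lost without at least 3 of the single arrays. Of 25 distinct genes called in the signalling and immune lists, 17 were called again without Snai1 array 1, 11 without Snai1 array 2, 9 without control array 1 and 10 without control array 2, and 13 with median scaling.

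Cell division genes were close to the background, with 2 higher and 2 lower of 43 G1/S and DNA replication genes (median 0.02) and 1 and 1 of 42 G2/M genes (median 0.02). TYMS, thymidylate synthase, read 7089 and 7325 on the Snai1 arrays and 3721.5 and 3804.5 on the control arrays and rose 1.92-fold, while RRM2, a ribonucleotide reductase subunit, read 610.5 and 559 on the Snai1 arrays, 982.5 and 1064.5 on the control arrays and 1009 and 786.5 on the ncRNA-a7 arrays and was 1.75-fold lower than control. Lysosome and autophagy genes had 4 of 35 members higher and 7 lower (median -0.15), and 4 of the 7 were lower than in both other groups. NPC1, the cholesterol transporter of lysosomes, read 2300.4 and 2294 on the Snai1 arrays, 3855 and 4493 on the control arrays and 3417 and 3476 on the ncRNA-a7 arrays. ULK1, the kinase that starts autophagy, read 1916 and 1990.4 on the Snai1 arrays, 3636.5 and 4261 on the control arrays and 2687 and 1995 on the ncRNA-a7 arrays. It was not among those 4, as its difference from ncRNA-a7 siRNA was not called. GABARAPL1, an autophagosome protein, fell 1.69-fold, and WIPI1 and OPTN fell 1.49-fold and 1.48-fold with ncRNA-a7 changes of 0.34 (95% interval 0.10 to 0.58) and 0.18 (95% interval -0.08 to 0.45). The NPC1 and GABARAPL1 calls against ncRNA-a7 were lost without either Snai1 array or ncRNA-a7 array 2, and the WIPI1 and OPTN calls against control without either control array. The list had 11 called members, and 3 without control array 1.

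Of 18 imprinted genes 0 rose and 4 fell (median -0.09), H19, DIRAS3, CDKN1C and MEST, and the calls of CDKN1C and MEST were lost without Snai1 array 2 or either control siRNA array. Of 14 shelterin and telomerase genes 0 rose and 3 fell (median -0.13), led by TERF1, and of 14 RNA interference genes 0 rose and 2 fell (median -0.14), 0 of which were called without Snai1 array 2. The large housekeeping complexes stayed near or below the background: 0 higher and 1 lower of 25 small ribosomal subunit genes, 1 and 3 of 42 oxidative phosphorylation genes, and 0 and 0 by limma of 27 proteasome genes, with medians of -0.01, -0.07 and -0.03. Of the proteasome genes 2 were higher and 1 was lower at an unadjusted p under 0.05. Of 30 distinct genes called in the growth and housekeeping lists, 17 were called again without Snai1 array 1, 12 without Snai1 array 2, 8 without control array 1 and 13 without control array 2, and 21 with median scaling.

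Some genes of the epithelial, leukocyte, endothelial and fibroblast marker lists moved as well. Of 8 epithelial markers 7 passed the filter, CDH1 rose, EPCAM and KRT7 fell, and 4 were not called (median -0.03). The summed signal of all 7, which includes the bright KRT8, was 29632 to 30747 with Snai1 siRNA and 26962 to 28319 with control siRNA. Of 8 leukocyte markers 5 passed the filter and 2 rose, CD14 2.22-fold and CD68 2.05-fold, and the summed signal of the 5 was 3502 to 3932 with Snai1 siRNA and 1936 to 2017 with control siRNA. CD68 is also a lysosomal protein of many cell types. Of 8 endothelial markers 4 passed, ESAM rose and 3 were not called. The median of the 4 was -0.11 and the lowest difference -0.27. Their sums, which include ESAM, were 694 to 750 against 546 to 606. Of 8 fibroblast markers 4 passed and 2 rose, LUM and COL1A1, with sums of 919 to 953 against 722 to 794, and 0 of these 2 calls were kept without Snai1 array 2. PTPRC, CD3D, VWF, CDH5, COL1A2 and COL3A1 stayed under the filter on dim probes. The arrays were of cultures of the A549 cell line, and a part of other cells in the results was not tested.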

How the data were processed

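RNA of A549 cells from 3 siRNA groups, 2 arrays each, was read on 1-colour Illumina arrays. The deposited table holds scanner intensity per probe on a linear scale, not normalized, with array means of 715 to 914 and medians of 147.5 to 154.1. A second deposited table holds the authors' processed intensity, which is the scanner value multiplied by 1 constant per array (0.783 to 1) to a mean of 715. Which software the authors used is not stated in the labels. Neither table holds detection p-values or control probes, so the number of arrays limits the precision (median SE 0.13 on the log2 scale), and no slide or scan date was available as a batch.

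Signals were corrected by normexp with an offset of 50, quantile normalized and log2 transformed (limma 3.58.1, R 4.3.3). Probes with a mean at or below the median over probes were left out, which kept 24350 of 48701. Genes were named from the platform annotation, which gives 1 symbol for 28044 probes, several for 13 and none for 20644, and 28005 of the named probes were found in a RefSeq table, with 0 symbols changed. Each gene was represented by its brightest probe. All 6 arrays entered 1 limma fit (3 residual degrees of freedom, prior 8.9), with Benjamini-Hochberg adjustment over 19730 features and calls at 0.05. Genes changed against both groups were called against control and against ncRNA-a7 in 1 direction. Counts of members are of those tested.

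The genes named are CDH1 and the siRNA targets SNAI1 and TRERNA1, the 15 largest rises and falls with non-overlapping arrays and a mean in the upper 75% of features, the 12 furthest above and below both groups, and up to 4 called members of smallest p per list. Others were named after their values were seen. The comparison, the members and the lists were chosen with earlier results of these data known.

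Data were simulated for these features with independent noise drawn from the variance prior of the fit. In them 170 features changed 2-fold and 178 changed 1.5-fold, on the Snai1 arrays only. The fit recovered 95.9% of 2-fold and 25.8% of 1.5-fold changes between Snai1 siRNA and control, with 4.57% of calls false. Between the siRNAs 6.99% of calls were false. For changes against both groups the fit recovered 95.3% and 16.3%. Far fewer features changed than were called here, so these rates need not hold for the real arrays. Alternatives covered background correction, offset, normalization, filter, probe summary, the arrays in the fit, the replicate block, a fold threshold and each array left out. Figures were drawn with matplotlib 3.10.9.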

Additional observations from a re-analysis of the deposited data

Results flagged for a closer look

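The results below differ between the siRNAs: the change from control with Snai1 siRNA minus the change with ncRNA-a7 siRNA, which equals the difference between the 2 siRNA groups, had a limma adjusted p under 0.05 (n = 2 arrays per group). All values are log2 differences, positive where Snai1 siRNA gave the higher signal. The siRNA changes share the 2 control arrays, and causes were not tested.

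Among the largest rises against control, the siRNAs differed by 0.57 for CIDEC, 1.51 for LRRC26, 0.90 for LBP, 0.59 for REEP1, 0.62 for SCD5, 0.90 for IGFBP1 and 0.56 for GALNT18. CLDN2 and CEMIP rose less with Snai1 siRNA than with ncRNA-a7 siRNA, by -0.42 for CLDN2 and -0.57 for CEMIP. Among the largest falls, STC2 fell less with Snai1 siRNA (0.76). The others fell further, with differences of -0.99 for H19, -0.48 for UHMK1, -0.68 for LXN, -1.02 for HORMAD1, -1.03 for TERF1, -1.13 for DTD2, -1.55 for B4GALT7, -1.39 for NETO2, -0.60 for BEX2 and -0.96 for TFPI2.

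Of the genes above both other groups, the siRNAs differed by 0.88 for NRP2, 0.85 for TRIM31, 0.84 for MYRF, 0.84 for FAM199X, 0.82 for ESAM, 1.59 for SDC4, 1.36 for CELF1, 1.17 for GXYLT1 and 0.80 for ANXA10. Of those below both, they differed by -1.76 for S100A10, -1.55 for UROD, -1.09 for NECAP1, -1.12 for SAR1A, -1.47 for PAFAH1B1, -1.44 for PRTFDC1, -1.04 for LIAT1 and -1.04 for PPP1R14B.

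In the adhesion and protease lists the differences were 0.63 for PALS1, -0.70 for KRT7, -1.80 for KRT80, -0.91 for KRT4 and 0.47 for HAS3. In the lipid and liver-type lists they were 0.48 for ANGPTL4, -0.60 for ABCA1, -0.88 for FADS1 and -0.46 for HGD. Stress response members differed by -0.66 for SGK1, -0.51 for GDF15, -0.58 for DERL2, -0.61 for ABCC3, -0.55 for XPC and -0.58 for ADM. Signalling and immune members differed by 0.65 for ID4, 0.72 for NOTCH3, 0.49 for LEF1, 0.67 for DLL1, 0.58 for IL4R, -1.37 for IFNAR1, 0.79 for CCL20 and -1.22 for IL6ST. Growth, lysosome and respiratory chain members differed by -0.61 for RRM2, 0.71 for SLBP, -0.59 for NPC1, -0.57 for GABARAPL1 and -0.47 for NDUFA10, and the fibroblast markers by 0.45 for LUM and 0.49 for COL1A1.

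Of these 67 differences, 34 kept their call without any single array. The number kept was 43 without Snai1 array 1, 38 without Snai1 array 2, 57 without either control array, 42 without ncRNA-a7 array 1 and 50 without ncRNA-a7 array 2. Of the 24 genes furthest above or below both other groups, all are among the 34 except LBP, which lost the call without Snai1 array 2. So are STC2, H19, HORMAD1, TFPI2, FADS1, KRT7, KRT80, KRT4, IFNAR1, CCL20 and IL6ST.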

How the results depend on the processing

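With 2 arrays per group, single arrays limited every count. Without 1 array in turn, features called against control numbered 498 to 1934, against ncRNA-a7 397 to 1080 and against both 129 to 323. The cause was not tested beyond the smaller number of arrays. Against control, 966 were called with an offset of 16, 1067 with median scaling, 820 without a filter and 50 with limma treat at 1.5-fold. Against ncRNA-a7, 2492 were called without background correction, 559 with an offset of 16, 699 with median scaling, 498 without a filter, 2498 with means above the 75th percentile and 23 with treat. Against both, the same settings gave 874, 185, 241, 144, 939 and 4. Median scaling moved the median of all features to -0.06 and the share of rises from 53.3% to 33.7% against control, from 41.6% to 29.5% against ncRNA-a7, and from 34.4% to 18.7% against both. Of the features called against both, 229 were among the 480 under median scaling and 182 with an offset of 16. Cyclic loess, the authors' scaled values and the mean of a gene's probes kept each of the 3 counts within 1.5 times. Of single named genes against control, 2061 values across the alternatives kept their call and 338 lost it, and against ncRNA-a7 793 kept and 219 lost it. In 0 of them did a called value change sign. Of the list counts, 424 stayed within 1.5 times and 205 did not. With the replicate block, 1664 were called against control, 1433 against ncRNA-a7 and 421 against both. Deviations of same-numbered Snai1 and control arrays correlated at -0.07 and of Snai1 and ncRNA-a7 arrays at 0.01, so no shared deviation by replicate number was seen. As these values follow quantile normalization, they cannot tell whether equal numbers mark a common culture or batch. Dim genes are the least measured, as the dimmest of 4 equal classes of features held 39 of the 1807 calls against control.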

Other observations

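Some of the largest changes with Snai1 siRNA were larger with ncRNA-a7 siRNA. Of the 1807 features called against control, 42 were called in the opposite direction against ncRNA-a7, 32 of them higher and 10 lower than control. CLDN2 was 2.98 above control with Snai1 siRNA and 3.41 with ncRNA-a7 siRNA on the log2 scale. STC2 differed from control by -1.87 and -2.63, and PSAT1 by -0.79 and -1.54. CEMIP differed by 1.76 and 2.33, its ncRNA-a7 arrays reading 2800.1 and 1942. Both changes share the 2 control arrays. The difference between the siRNAs was kept without any single array for STC2, lost without Snai1 replicate 2 for PSAT1, lost without each array in turn for CLDN2, and kept without ncRNA-a7 replicate 2 alone for CEMIP.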
